A study of Danio rerio with 4 samples.

Results

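The genes of 7 plasma proteins that the liver secretes were followed in zebrafish larvae (Danio rerio): the fetuins ahsg1 and fetub, the vitamin D-binding protein gc, transthyretin (ttr), retinol-binding protein (rbp4), the alpha-1-microglobulin and bikunin precursor (ambp) and haptoglobin (hp). They were taken by symbol from a table of gene expression, and the 7 symbols stood on 8 of its 32520 distinct gene IDs. RNA from whole larvae was sequenced in 4 libraries. The 2 control libraries came from untreated larvae, and the 2 PM2.5 libraries came from larvae given 12000000 smog particles between 72 and 120 hours after fertilization. PM2.5 is airborne matter fine enough to be inhaled deeply. RNA of each group came from 5 to 7 larvae. The labels name neither a strain, a genotype nor a vehicle, and they leave unsaid whether libraries of the same group had separate parents or exposures. Each p-value for a gene rests on the spread among these 4 libraries, both its own and that of other genes. Part of that spread may be technical.

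Hepatocytes release these proteins into the blood, where most of them carry or capture something. Transthyretin binds thyroid hormone and, in mammals, holds retinol-binding protein and its retinol in a complex too large for the kidney filter. The vitamin D-binding protein carries vitamin D metabolites and also captures actin released by dying cells. Fetuins belong to the cystatin superfamily, and haptoglobin binds haemoglobin that escapes from red cells. In mammals transthyretin, retinol-binding protein and the fetuin Ahsg are known to decline in blood during an acute inflammatory response, whereas haptoglobin rises. In zebrafish embryos the yolk syncytial layer also makes several plasma proteins.

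The values were TPM, a gene's reads divided by its length and scaled to the same total in each library, so levels of different genes can be compared within a library. A TPM is a share of the library, so it also moves when other genes change. Because the RNA came from whole larvae, fewer liver cells and less RNA per liver cell cannot be told apart. Of the 9 hepatocyte markers all were above 0 in every library, and their summed level was 5182 and 4972 TPM in the controls and 4443 and 4523 TPM in the PM2.5 libraries. Most of that sum was apoa2 (means of 2648 TPM in controls and 2448 TPM after exposure) and fabp10a (1566 and 1245 TPM), both named after their values were seen. Of the 9 hepatocyte markers, 3 fell and none rose (limma on log2(TPM + 1), adjusted p under 0.05; 4 and 0 at an unadjusted p under 0.05). Skin markers fell in 4 of 4 genes, from 11724 and 11567 to 4619 and 4716 TPM in sum. Exocrine pancreas markers fell in 4 of 6, and enterocyte markers in 2 of 5. Over all tested genes, 2.62% were called lower and 8.46% higher. At an unadjusted p under 0.05 (limma), 5669 of the 20874 tested genes passed, both directions together. The 3 markers of yolk and lipoprotein export had no call (limma, none at an unadjusted p under 0.05) and summed to 146 and 148 TPM without and 141 and 145 TPM with PM2.5. The skin calls were kept when any single library was left out, the hepatocyte and enterocyte calls were lost each time, and 0 to 3 of the pancreas calls were left. With no intensity trend in the fit, the 4 skin calls and 1 enterocyte call were left, and no hepatocyte or pancreas call. The part of these shifts in the results below was not tested.

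The symbol hp stood on 2 gene IDs that differ in identity. ENSDARG00000051890 on chromosome 7 is hp in both reference name tables as well. ENSDARG00000095807 on chromosome 8 has no Entrez ID in the deposited table, and the Ensembl-based reference table names it msmbl, which RefSeq also places on chromosome 8. The values of that row are therefore given as those of the chromosome 8 row listed as hp, and not as haptoglobin. The other 6 symbols each stood on 1 gene ID, and the reference tables gave the same names for them apart from letter case.

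The 8 rows did not move together. The genes gc and ttr rose in larvae exposed to PM2.5, and fetub and ahsg1 fell. The genes rbp4 and ambp and the chromosome 8 row listed as hp did not pass the test, and hp itself was close to 0. Among 20874 tested genes, those averaging 1 TPM or more, 8.46% were called higher and 2.62% lower, which makes 11.1% in all (limma, adjusted p under 0.05). Higher genes made up 76.4% of these calls, 61.2% after rescaling of the TMM type and 57.9% after quantile normalization. Of the 7 rows tested, 2 were called higher and 2 lower. Control and PM2.5 values were apart in 6 of the 7, in 3 upward and in 3 downward, against 56.3% of all tested genes, 36.6% upward and 19.7% downward.

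**Figure D1:**
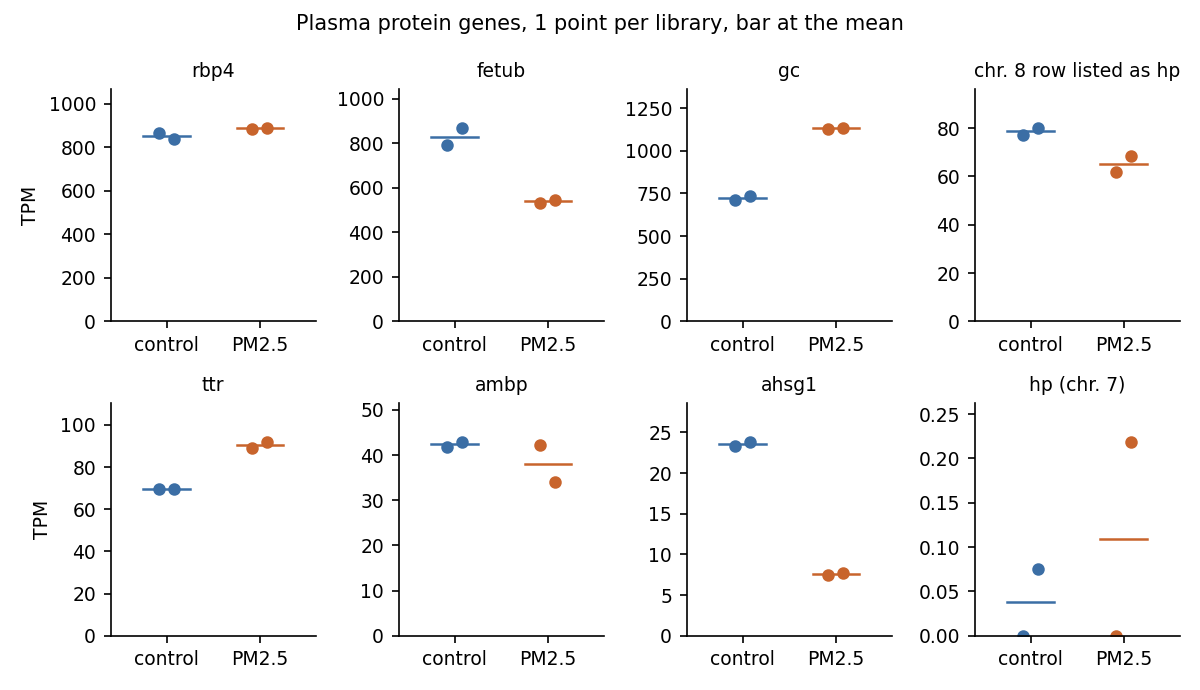
TPM of each row in every library, with 1 panel per row and its own linear axis from 0; points are libraries and bars are group means of 2 libraries. The control and PM2.5 points lie apart for gc, fetub, ttr and ahsg1, lie closer for rbp4 and the chromosome 8 row listed as hp, and overlap for ambp and hp.

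In control larvae the levels spanned a wide range. The gene rbp4 was the highest with 849 ± 19.9 TPM (SD, n = 2), and fetub followed with 829.7 ± 55.6 TPM. The library values of these 2 genes overlapped, so their order was not settled. The third was gc with 722 ± 13.9 TPM, below both in every control library. The chromosome 8 row listed as hp (78.6 ± 2.19 TPM), ttr (69.5 ± 0.0207 TPM), ambp (42.4 ± 0.744 TPM) and ahsg1 (23.6 ± 0.322 TPM) came next, and neighbours in this order did not overlap. The 3 highest genes ranked 175, 181 and 200 among all 32520 gene IDs. In PM2.5 larvae the order of the leading genes became gc, rbp4, fetub, with no overlap between neighbours, and ttr lay above the chromosome 8 row.

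Among the carriers of small molecules, gc (ENSDARG00000089310, chromosome 5) stood at 713 and 732 TPM in controls and at 1127 and 1135 TPM in the PM2.5 libraries. Both exposed libraries lay well above both controls. The mean rose 1.57-fold, to 1131 ± 5.15 TPM (SD, n = 2), a log2 fold change of 0.65 (SE 0.036, 95% interval 0.56 to 0.73, limma adjusted p = 0.00035). Its rank among all gene IDs moved from 200 to 134. The call was kept without each library in turn and lost only in the fit with no intensity trend (adjusted p = 0.062). In RefSeq the gene gc overlaps npffr2a, a neuropeptide receptor gene, whose own row (listed as NPFFR2) had means of 3.34 and 2.69 TPM and did not pass (adjusted p = 0.619).

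Transthyretin (ttr, ENSDARG00000037191, chromosome 20) was at 69.5 TPM in both controls and at 88.9 and 91.9 TPM after exposure. The groups lay apart and the controls were almost identical. The mean rose 1.30-fold, to 90.4 ± 2.12 TPM, a log2 fold change of 0.37 (SE 0.066, 95% interval 0.21 to 0.53, limma adjusted p = 0.019). This call was fragile: it was lost when any 1 library was left out (adjusted p between 0.098 and 0.141), after TMM-type rescaling (0.063), after quantile normalization (0.064) and with no intensity trend (0.143), with a positive sign each time.

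Retinol-binding protein (rbp4, ENSDARG00000101199, chromosome 12), a lipocalin that carries vitamin A from the liver, was at 863 and 835 TPM in controls and at 884 and 889 TPM in the exposed libraries. The exposed values lay just above the controls. The log2 fold change was 0.06 (SE 0.037, 95% interval -0.028 to 0.15, limma adjusted p = 0.342). Its sign turned after TMM-type rescaling (-0.028, adjusted p = 0.837), and it passed as higher after quantile normalization (0.14, adjusted p = 0.041). Its relative rbp4l (ENSDARG00000044684, chromosome 21), of the same lipocalin family, was at 27.8 and 25.1 TPM in controls and at 16.8 and 22.7 TPM after exposure (log2 fold change -0.42, adjusted p = 0.157). In RefSeq the gene rbp4 overlaps fra10ac1, whose means were 4.03 and 4.54 TPM (adjusted p = 0.865).

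Fetuin B (fetub, ENSDARG00000053973, chromosome 22) inhibits zinc proteases of the astacin family in the mouse. It was at 790.3 and 869 TPM in controls and at 533 and 544 TPM in the PM2.5 libraries. The exposed libraries were close to each other and far below both controls. The mean fell to 0.649 of the control level, 538 ± 7.45 TPM, a log2 fold change of -0.62 (SE 0.054, 95% interval -0.75 to -0.49, limma adjusted p = 0.0017). Leaving out PM2.5 library 1 (adjusted p = 0.061) or PM2.5 library 2 (0.051) ended the call, as did the fit with no intensity trend (0.076).

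The steepest fall was that of ahsg1 (ENSDARG00000026764, chromosome 22), whose mammalian counterpart fetuin A binds calcium phosphate and limits calcification. It was at 23.4 and 23.8 TPM in controls and at 7.45 and 7.73 TPM after exposure. Each group was tight and the groups were far apart. The mean fell to 0.322 of the control level, with a log2 fold change of -1.52 (SE 0.118, 95% interval -1.80 to -1.23, limma adjusted p = 0.0011). Of all tested genes, 2.11% had a larger log2 fold change in size. The call was kept in each of the 12 alternative fits, but with little margin to the threshold when a library was left out. The log2 fold change then lay between -1.54 and -1.49. With a pseudocount of 0.1 TPM, which compresses low values less, the log2 fold change was -1.62.

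A further fetuin gene outside the 7 symbols, ahsg2 (ENSDARG00000069293, chromosome 2), also fell. It went from 11.2 and 7.26 TPM to 2.81 and 2.26 TPM (log2 fold change -1.51, SE 0.243, limma adjusted p = 0.015). Its 2 controls differed more than those of ahsg1, and its call was lost when any single library was left out and with no intensity trend (highest adjusted p = 0.152). In RefSeq (GRCz12tu), ahsg1 and fetub are neighbouring protein-coding genes on chromosome 22, and a long non-coding RNA gene overlaps both. The next protein-coding gene beyond fetub, the potassium channel gene kcnh1b, had means of 2.98 TPM in the controls and 1.95 TPM after exposure and did not pass (log2 fold change -0.51, adjusted p = 0.458). The strand setting of the read counting is not given in the sources used here, so reads from the overlapping RNA gene cannot be told apart from those of the fetuins.

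The precursor gene ambp (ENSDARG00000004296, chromosome 10) encodes a lipocalin that scavenges heme and radicals and, on the same chain, the protease inhibitor bikunin. It was at 41.9 and 42.9 TPM in controls and at 42.2 and 33.9 TPM in the PM2.5 libraries. Only PM2.5 library 2 was low, and the groups overlapped. The log2 fold change was -0.16 (SE 0.119, 95% interval -0.45 to 0.13, limma adjusted p = 0.452). It was -0.0040 with PM2.5 library 2 left out and -0.31 with PM2.5 library 1 left out, so the difference rested on 1 library.

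Haptoglobin itself (hp, ENSDARG00000051890, chromosome 7) was listed at 0 in control 1 and PM2.5 library 1, at 0.0754 TPM in control 2 and at 0.219 TPM in PM2.5 library 2. It stayed under the minimum of 1 TPM and was not tested. The chromosome 8 row listed as hp was at 77.0 and 80.1 TPM in controls and at 61.7 and 68.5 TPM after exposure, with no overlap. Its log2 fold change was -0.27 (SE 0.080, 95% interval -0.46 to -0.073, limma adjusted p = 0.090). It passed as lower after TMM-type rescaling (-0.36, adjusted p = 0.038) and after quantile normalization (-0.40, adjusted p = 0.026).

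**Figure D2:**
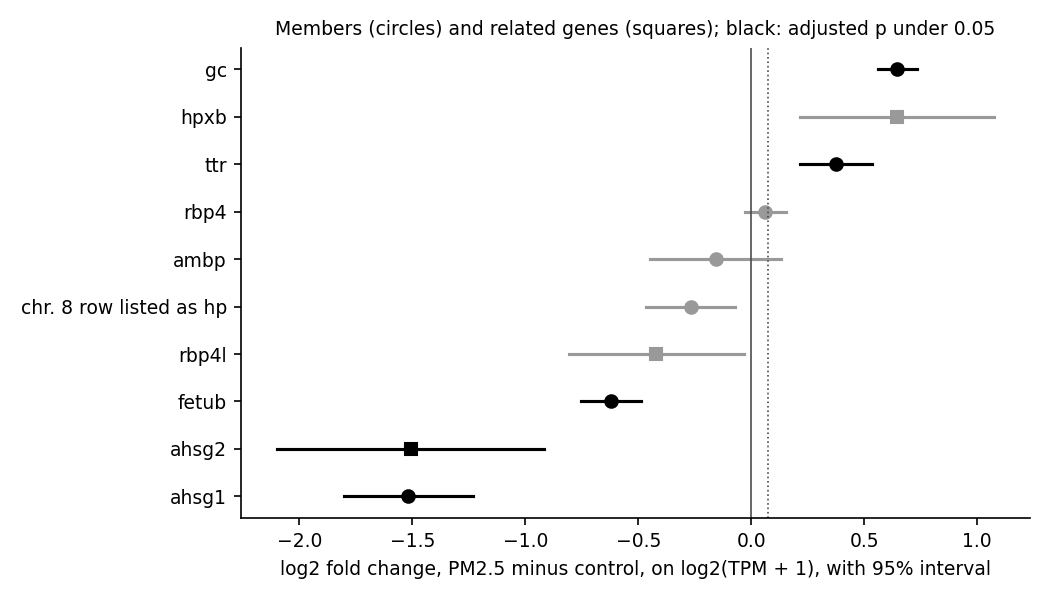
Log2 fold change on log2(TPM + 1), PM2.5 minus control, with 95% intervals from limma, for the 7 tested rows (circles) and 3 related genes (squares); black marks an adjusted p under 0.05, the solid line 0 and the dotted line the median of all tested genes (0.072). The genes gc and ttr lie to the right, and fetub, ahsg1 and ahsg2 to the left.

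A ratio within a library is the same whatever single factor the library is multiplied by, but quantile normalization can change it. The TPM of rbp4 was 12.42 and 12.01 times that of ttr in the controls and 9.95 and 9.67 times in the PM2.5 libraries, so it was lower in both exposed libraries. The log2 fold change of rbp4 minus that of ttr was -0.31 as deposited and -0.11 after quantile normalization, so the size of this shift depended on that choice. For gc and fetub the same difference was 1.27 as deposited and 1.26 after quantile normalization. The ratio of gc to fetub was 0.902 and 0.843 in the controls and 2.11 and 2.09 after exposure. The ratio of gc to rbp4 went from 0.825 and 0.877 to 1.27 and 1.28, so gc lay below rbp4 in both controls and above it in both exposed libraries. The ratio of fetub to ahsg1, the neighbouring fetuin genes, went from 33.8 and 36.5 to 71.6 and 70.3. In each of these ratios the 2 groups lay apart. With 2 libraries against 2, an exact permutation test (two-sided) cannot give a p below 0.333, and it gave that value for each ratio.

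**Figure D3:**
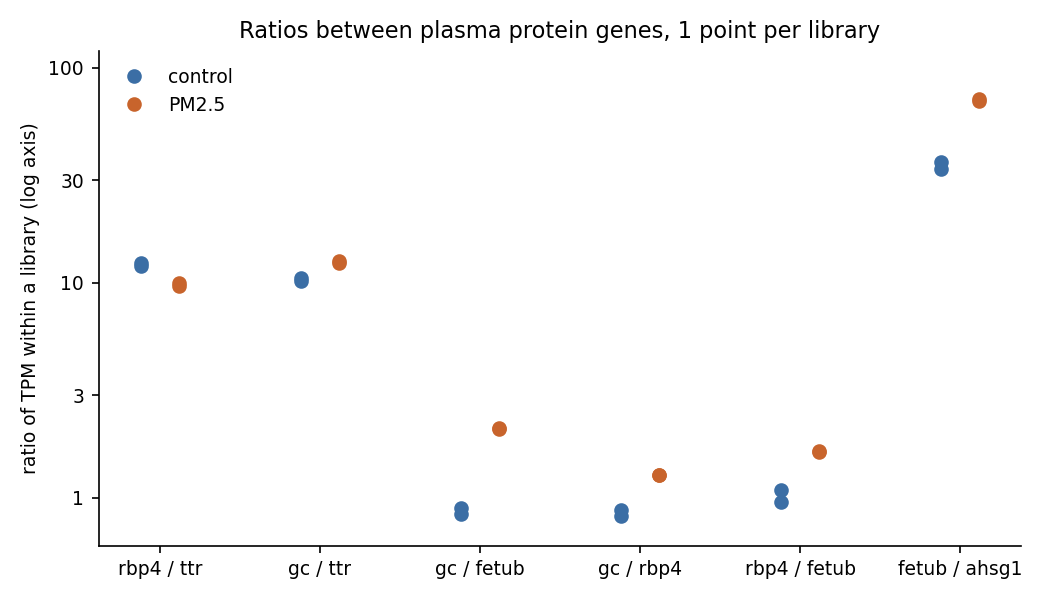
Ratio of TPM between pairs of member genes within each library, on a log axis, with 1 point per library. The ratio of fetub to ahsg1 lies near 35.1 in controls and 70.9 in PM2.5 libraries, and the ratio of gc to fetub crosses 1.

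The sum of the 7 genes, without the chromosome 8 row, was 2501 and 2573 TPM in the controls and 2683 and 2701 TPM in the PM2.5 libraries. The sum thus differed little while its make-up shifted. The gene gc made up 28.5% of it in both controls and 42.0% in both PM2.5 libraries. The share of fetub went from 31.6% and 33.8% to 19.9% and 20.1%, and that of ahsg1 from 0.935% and 0.926% to 0.278% and 0.286%. The gene rbp4 kept a share between 32.5% and 34.5% in all 4 libraries.

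**Figure D4:**
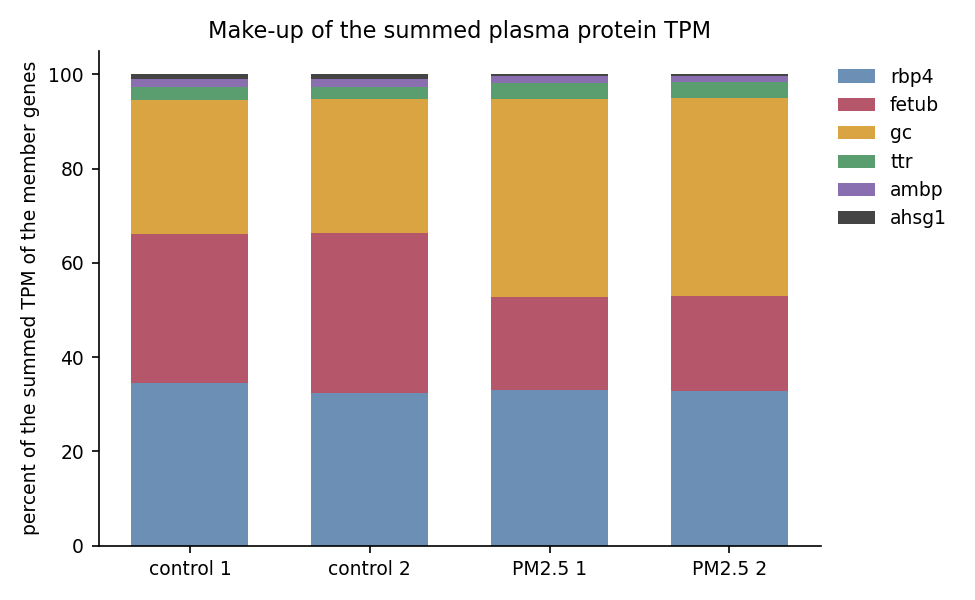
Stacked bars of the percent of the summed TPM that each member gene makes up in each library (hp on chromosome 7, at most 0.0081%, is too small to draw, and the chromosome 8 row is left out). The gc segment is wider and the fetub segment narrower in both PM2.5 libraries, while the rbp4 segment is similar in all 4.

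Other genes that serve the same carriers were read against the 8.46% higher and 2.62% lower over all tested genes. Counts at an unadjusted p under 0.05 (limma) stand beside 5669 of all 20874 tested genes, both directions together. In the list of retinoid handling genes, 3 of 48 tested members rose and 3 fell. Among those that fell were rbp2a (log2 fold change -0.63, limma adjusted p = 0.0012), a cellular retinol-binding protein gene of the gut, and rbp3 (-0.54, adjusted p = 0.0016), the retinoid carrier of the eye. The gene for the rbp4 receptor, stra6, named after its value was seen, was at 9.59 and 10.1 TPM in controls and at 14.5 and 13.9 TPM after exposure and did not pass (0.48, adjusted p = 0.063). The 3 that rose, also named after their values were seen, were rdh5 (0.71), rlbp1b (0.56) and rpe65a (0.37), genes of the visual cycle in the eye. The median of the list was 0.12. With either of the other scalings, 1 member was called higher and 4 lower. None of the 3 higher calls was left when any single library was left out, and with no intensity trend no call of either direction was left (rbp2a adjusted p = 0.067, rbp3 0.084).

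In the list for thyroid hormone, none of 17 tested members rose or fell in the limma test (1 higher and 2 lower at an unadjusted p under 0.05). Among the smallest p-values were those of the receptor coactivator gene ncoa1 (-0.33, adjusted p = 0.165) and the transporter gene slc16a10 (0.24, adjusted p = 0.173). The median was -0.026. The vitamin D list had 2 of 18 tested members higher and 2 lower, with a median of -0.091. The calcium channel gene trpv6 rose from 2.14 and 1.89 to 6.43 and 6.76 TPM (1.33, adjusted p = 0.010). The disulfide isomerase gene pdia3 rose (0.998), and pth4, a parathyroid hormone gene, fell (-1.95). The other gene that fell was cyp24a1 (-0.58, adjusted p = 0.04998), which encodes the enzyme that breaks down active vitamin D and was named after its value was seen. The calls of trpv6, pth4 and cyp24a1 were lost when any single library was left out.

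Small plasma proteins that pass the kidney filter are taken back by the proximal tubule. In the list of tubular protein uptake, 5 of 18 tested members rose and none fell (6 and 1 at an unadjusted p under 0.05, limma; median 0.12). They included the endocytosis gene ehd1b (0.55), the lysosomal protease gene lgmn (0.33) and the receptor chaperone gene lrpap1 (0.46), which are active in many tissues. The other 2, named after their values were seen, were the vesicle genes ap2m1a (0.24) and rab11a (0.34). Only 1 of the 5 calls was left after TMM-type rescaling or quantile normalization, and all 5 were lost when any single library was left out. The 5 tubule markers, among them the uptake receptor genes lrp2a and cubn, had no call (limma, 0 higher and 1 lower at an unadjusted p under 0.05). The lower one was lrp2a, at 9.10 and 9.52 TPM in controls and at 6.56 and 7.13 TPM after exposure (-0.40, limma adjusted p = 0.150). For cubn the log2 fold change was 0.064.

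In the list around bikunin, which joins the heavy chains of inter-alpha-trypsin inhibitor to coat hyaluronan, 4 of 26 tested members rose and none fell (6 and 4 at an unadjusted p under 0.05, limma; median -0.14). The leading members were the Kunitz-type protease inhibitor genes of epithelia: spint2 rose from 58.5 and 56.3 to 194 and 175 TPM (1.67), spint1a rose by 0.76 and spint1b by 0.92 on the log2 scale. They are not part of inter-alpha-trypsin inhibitor. The fourth was zgc:112265 (0.34), named after its value was seen. The heavy chain genes itih2 (-0.16), itih3a (-0.49) and itih3b (-0.48), also named after their values were seen, did not pass. Their limma adjusted p-values were 0.368, 0.109 and 0.085, and each gene was lower in both exposed libraries than in both controls. The calls of spint1a, spint1b and zgc:112265 were lost when any single library was left out, and that of spint2 was kept. After TMM-type rescaling or quantile normalization, 3 members were called higher and 1 lower. The list of fetuin partners had none of 17 tested members higher and 2 lower (2 and 3 at an unadjusted p under 0.05): ahsg2 and anxa6, an annexin gene (-1.52), whose call was lost with either control library left out. The median was 0.12. The gene tgfbr2b did not pass (0.35, adjusted p = 0.105).

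In the list of heme and globin clearance, the setting in which haptoglobin acts, 4 of 20 tested members rose and 1 fell, with a median of 0.12. The embryonic globin gene hbbe1.1 fell from 585 and 615 to 177 and 174 TPM (-1.76, adjusted p = 2.9e-05), although reads shared with its close copies may be split among them. The heme synthesis gene alas1 rose from 294 and 281 to 531 and 504 TPM (0.84), and the heme-binding protein gene hebp2 rose (0.99). The other 2 that rose, named after their values were seen, were alas2 (0.67), which serves heme synthesis in red cells, and the globin gene hbae3 (0.48). Leaving out any single library ended the call of alas2, and that of hbae3 was kept only with PM2.5 library 2 left out. The gene hmox1a, which encodes heme oxygenase and was named after its value was seen, was at 14.3 and 12.2 TPM in controls and at 8.23 and 5.19 TPM after exposure and just missed the threshold (-0.91, adjusted p = 0.051). It passed as lower after TMM-type rescaling, with a minimum of 5 TPM and with the replicate block. The list had 2 lower members in each of these fits. It also had 2 after quantile normalization, where hmox1a did not pass. Hemopexin is the plasma carrier of heme. Of its genes, hpxa was at 0.63 and 1.14 TPM in controls and at 0.826 and 0.668 TPM after exposure and was not tested. The gene hpxb was at 11.1 and 10.7 TPM in controls and at 20.8 and 14.8 TPM after exposure. It did not pass (0.64, limma adjusted p = 0.072), but passed as higher with the replicate block (adjusted p = 0.043).

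Other liver genes were the next comparison, again beside 8.46% higher and 2.62% lower over all tested genes. Of 36 tested genes of other secreted liver proteins, 1 rose and 7 fell, with a median log2 fold change of -0.16 against 0.072 over all tested genes. At an unadjusted p under 0.05 (limma), 2 were higher and 14 lower. The protease inhibitor genes serpina1 and serpina1l fell by 0.34 and 0.39 on the log2 scale (limma adjusted p = 0.012 and 0.010), and reads shared between these paralogs may be split. The growth factor binding protein gene igfbp1a fell by 0.42. All 3 of these calls were lost when any single library was left out. Of the 7 lower calls in the list, none was left in 3 of these fits and with no intensity trend, and 1 without PM2.5 library 2. The lists share genes. The lower calls here include serpina1 and cp (named after its value was seen), both already counted as hepatocyte markers. They also include ahsg2, counted among the fetuin partners, and the higher call is zgc:112265, counted in the list around bikunin. The gene gc lay 0.81 and ttr 0.54 above the median of this list, rbp4 lay 0.22 above it, ambp 0.0040 above it, fetub 0.46 and ahsg1 1.36 below it. Of 56 tested hepatocyte enzymes and transporters, 6 rose and 9 fell (median -0.032). Among those that fell was fabp10a, named after its value was seen and already counted as a hepatocyte marker. The urea cycle gene ass1 (listed as ASS1) rose by 1.61 on the log2 scale, and the cytochrome P450 gene cyp3a65 fell (-0.83), and both calls were kept in every alternative fit. Leaving out any single library left 1 higher and 2 to 3 lower calls in this list, and the fit with no intensity trend left 3 and 2.

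The other plasma protein families were set beside the 8.46% higher and 2.62% lower over all tested genes. Apolipoprotein genes rose in 3 and fell in 3 of 16 tested, among them apoeb (0.65), apoa1a (0.30) and apoda.2 (-1.10), and the call of apoa1a was lost when any single library was left out and after TMM-type rescaling. The others, named after their values were seen, were apom (0.28), apoa1b (-0.22) and apoda.1 (-0.68), and the median was -0.0080. Leaving out any single library ended these 3 calls too and left 1 higher (apoeb) and 1 lower (apoda.2). None of 21 tested coagulation genes was called (3 higher and 1 lower at an unadjusted p under 0.05, limma; median 0.064). The smallest p-values in that list were those of the tissue factor gene f3a (0.56), prozb (0.98) and the factor X gene f10 (-0.39), with adjusted p-values between 0.060 and 0.093. Complement genes rose in 2 and fell in 1 of 30 tested: c4b (1.27), cfb (0.70) and c7b (-0.93), with a median of 0.0030. At 6.67% higher and 3.33% lower, the called shares of this list were near those over all tested genes. At an unadjusted p under 0.05 (limma), 10 were higher and 1 lower. Over all 20874 tested genes, 5669 passed that threshold, both directions together. The calls of c4b, cfb and c7b were lost when any single library was left out, and that of cfb also after TMM-type rescaling or quantile normalization.

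Among 26 tested genes listed as liver transcription factors, 3 rose and none fell (6 and 0 at an unadjusted p under 0.05, limma), with a median of 0.063. Of all 20874 tested genes, 5669 passed that unadjusted threshold, both directions together. The 3 that rose made up 11.5% of the list, against 8.46% called higher over all tested genes. They were cebpb (0.43), a factor of acute phase transcription, xbp1 (0.45), a factor of the secretory pathway, and foxa3 (0.96). Each of these calls was lost when any single library was left out. With RNA of whole larvae, the tissue in which these genes changed was not resolved. Of 22 tested genes of the acute phase and the interleukin 6 pathway, 3 rose and 2 fell, with a median of 0.081. These were 13.6% and 9.09% of the list, against 8.46% and 2.62% over all tested genes. The iron hormone gene hamp fell (-2.97), crp2 (ENSDARG00000056498), 1 of 2 gene IDs of that name in the C-reactive protein family, fell from 120.0 and 123 to 84.6 and 84.9 TPM (-0.51, adjusted p = 0.0048), and the signalling suppressor gene socs3b rose (1.15). The other 2 that rose were cebpb, which is also on the list of transcription factors, and the signal relay gene stat3 (1.05), named after its value was seen. Leaving out control library 1 or PM2.5 library 1 ended the call of socs3b (highest adjusted p = 0.058), and leaving out any single library ended that of crp2. The call of stat3 was kept only with control library 2 left out (highest adjusted p = 0.095).

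**Figure D5:**
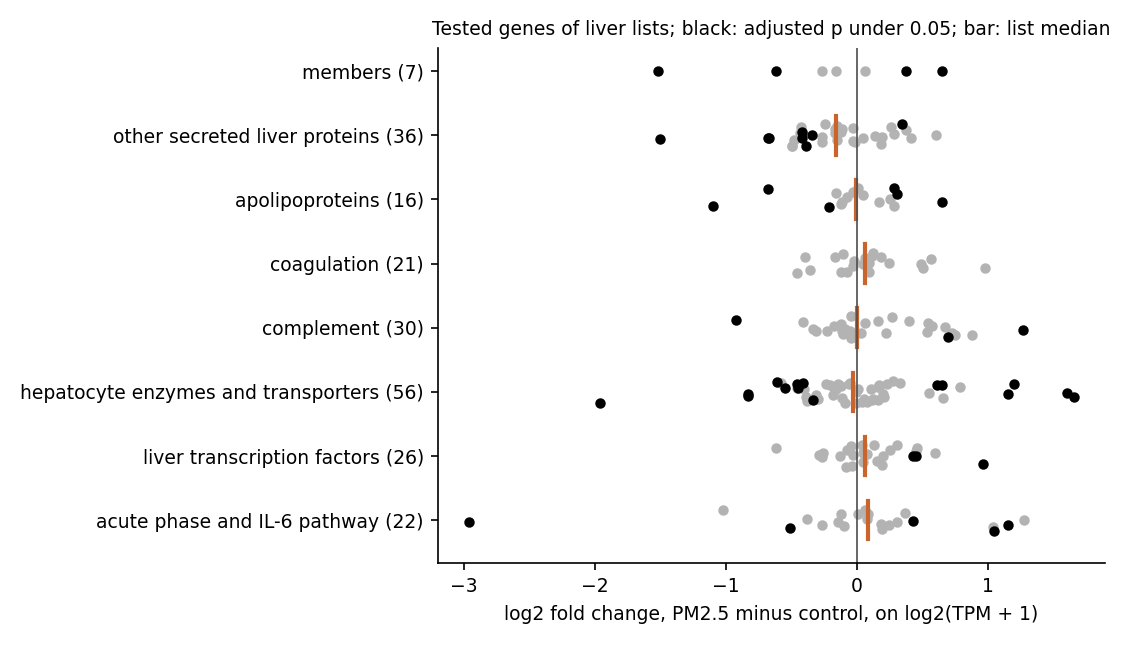
Log2 fold change, PM2.5 minus control, of each tested gene in 7 liver gene lists and of the 7 tested member rows (number tested in brackets); black points have an adjusted p under 0.05 and the bar is the list median. The members span from -1.52 (ahsg1) to 0.65 (gc), and the lists have calls on both sides except for coagulation, with none, and the transcription factors, with higher ones only.

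The genes whose pattern over the 4 libraries was most like that of a member were sought among 8792 other genes averaging 10 TPM or more. Genes without a symbol or with only a clone-type name were left out of this search. Likeness was the Euclidean distance between deviations of log2(TPM + 1) from each gene's own mean. With 4 libraries many genes come close, so these are descriptions only. The nearest to ahsg1 were the skin keratin genes cyt1 (distance 0.037) and krtt1c19e (0.090). The level of cyt1 was 2848 and 2836 TPM in the controls and 952 and 999 TPM after exposure. Of the genes searched, only these 2 lay within 0.1. The search used only the pseudocount of 1 TPM, which compresses a low gene such as ahsg1 more than a high one such as cyt1. The means fell to 0.322 of the control level for ahsg1 and to 0.343 for cyt1. Within 0.1 of fetub lay 23 genes, led by foxo1a and abcg1, and within 0.1 of gc lay 76, led by capns1b and wdr1 (listed as WDR1). For ttr the number was 280, led by grk7a and szrd1, and for rbp4 it was 577, led by thrb and ube2al. For ambp it was 33, led by agmo and ly97.3, and for the chromosome 8 row 221, led by znf395a and sgip1a.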

How the data were processed

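The authors deposited 1 table of TPM for whole zebrafish larvae, with 2 control and 2 PM2.5 libraries grouped by title. The submitters' processing notes list cutadapt 1.18, STAR 2.6.1c and GRCz11. How reads were counted, on which annotation, gene lengths and strand, is not given in the sources used here. RNA kit and sequencer differ between the labels and the design text. Per the series' design text, RNA had an integrity number above 7.8, and reads were paired with 150 bases; TPM keeps no depth, so the reads behind each value are unknown. The table held 32925 rows, of which 405 repeated a gene ID with the same TPM; each ID was used once. The total is 1000000 TPM in each library, with 24121 to 25138 genes above 0.

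Group was fitted with limma 3.58.1 (R 4.3.3) to log2(TPM + 1) of the 20874 genes averaging 1 TPM or more. The moderated test was two-sided, and its variance prior followed mean level. That prior carried 4.15 degrees of freedom, against 2 from the gene's own values. P-values were adjusted by Benjamini-Hochberg over all 20874 genes, with a threshold of 0.05. The fit was checked on simulated data, where it missed most of the changed genes at each size tried, up to 2 in log2. Far fewer genes were changed there than were called here, and each gene's own spread was taken as true. The share missed there therefore does not describe these data. With 2 libraries per group, a gene that did not pass may still have changed. Fold changes refer to log2(TPM + 1), which understates those of low genes. Of 459 list entries 419 matched a gene ID by the table's symbols or a reference name table. The members, lists and rules were chosen with earlier results of these data known. Named are the members, the 3 genes with the smallest p in each list, the 2 nearest in pattern to each member, and those marked as named after their values were seen; genes named as overlapping or neighbouring a member, and its relatives ahsg2, rbp4l, hpxa and hpxb, are outside that rule. Some genes that this rule names are not reported here. RefSeq GRCz12tu served only for names, gene order and overlaps, because it differs from the build of the files. No sequence is printed and no promoter was searched. The 12 alternatives were other pseudocounts, filters, scalings and variance settings, the replicate block and leaving out each library.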

Additional observations from a re-analysis of the deposited data

How the results depend on the processing

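The fit with no intensity trend ended the calls of gc (log2 fold change 0.65, adjusted p = 0.062), ttr (0.37) and fetub (-0.62), leaving 0 members higher and 1 lower (2 and 2 at an unadjusted p under 0.05, limma), and 665 genes higher and 105 lower in all against 1766 and 547. This fit gives weak and strong genes 1 prior spread, and the SE of gc went from 0.036 to 0.104. TMM-type rescaling moved the log2 fold change of ttr to 0.28, of rbp4 to -0.028 (its sign turned), and of the chromosome 8 row listed as hp to -0.36 (passed as lower), leaving 1 member higher. Quantile normalization gave 0.24 for ttr, 0.14 for rbp4 (passed as higher) and -0.40 for the chromosome 8 row (passed as lower), with 962 genes lower in all, and it shifted the median of all genes by -0.11. The cause of these moves was not tested.

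Leaving out 1 library gave 286 to 371 genes higher and 70 to 124 lower, with 1 member higher in each of the 4 fits (gc) and 1 to 2 lower. The log2 fold change ranged from 0.35 to 0.40 for ttr, which lost its call each time, and from -0.69 to -0.55 for fetub, which lost it without either PM2.5 library; a lone library is assumed to vary like the others. The pseudocounts of 0.1 and 0.5 TPM, no filter and a minimum of 5 TPM changed no call of a member. Deviations of same-numbered libraries had a correlation of 0.065 across 20874 genes. This single value gives little sign of pairing by replicate number. It cannot settle whether such libraries shared parents or an exposure. The fit with the replicate block had 2072 genes higher and 781 lower and changed no call of a member. The reads counted in each library are not given, so no limit of detection was set for hp.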

Other observations

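Next to hp on chromosome 7 in the RefSeq gene order lies sult5a1, a sulfotransferase gene. Its TPM was 0.62 and 0.502 without exposure and 17.5 and 16.1 with PM2.5 (log2 fold change 3.51, SE 0.188, limma adjusted p = 0.00032), named after its value was seen, while hp stayed at or below 0.219 TPM in all 4 libraries. Among the protein-coding neighbours of rbp4, cep55l rose from 2.23 and 3.73 to 7.09 and 6.93 TPM (1.04, adjusted p = 0.043, lost when any single library was left out), whereas the cone gene pde6c on the other side did not pass (-0.10, adjusted p = 0.339). The neighbours of ttr, pum2 and b4galt6, and those of ambp, ptgdsa and nrarpa, did not pass the limma test (adjusted p between 0.068 and 0.872).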
